A study of Mus musculus with 6 samples.

Results

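The enzymes that turn squalene into cholesterol were examined in cultured synovial fibroblasts (SFs) of arthritic mice with and without the antipsychotic amisulpride, which blocks dopamine and serotonin receptors. The set held 9 genes chosen by name, Sqle, Lss, Cyp51, Tm7sf2, Msmo1, Nsdhl, Ebp, Sc5d and Dhcr7. Each matched 1 of the 49548 genes in the deposited table, and all 9 were among the 12614 genes that passed the filter on low values. The SFs came from ankle joints of 8-week-old hTNFtg mice on a CBA C57BL/6J background, which carry a human TNF transgene and develop inflammatory arthritis. Immune cells bearing CD45 had been removed at passage 1, and the cells were studied as a culture outside the joint. One group of 3 libraries received amisulpride at 500 μM for 48 hours, and the other group of 3 is labelled as having no treatment, whereas the study's methods speak of vehicle. Both groups carry the transgene, and wild-type cells were not analysed here.

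Squalene is the last straight-chain product of the mevalonate branch of the pathway. Sqle adds oxygen to it, Lss folds it into lanosterol, and the remaining enzymes strip methyl groups, move a double bond and reduce others until cholesterol is formed in the endoplasmic reticulum. Transcription of nearly the whole pathway is known to be driven by SREBP2, a membrane-bound factor that is released when membrane cholesterol is low and is held back by Insig proteins when it is high. Every cell that divides needs membrane sterol, and fibroblasts are among the cells in which the feedback of cholesterol on this pathway was worked out.

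Gene activity was read by 3′ mRNA sequencing, and values are normalised counts, that is read counts scaled by the authors with a single factor for each library. Libraries held approximately 2.52 to 4.71 M reads, and untreated replicate 1, at 4.08 M, is the only one whose depth is uncertain. A floor of 3 reads was worth 2.50 to 5.37 normalised counts, and it covers counting error only. The leading principal component, with 37.1% of the variance, placed amisulpride replicate 3 at 73.9 and the others between -38.2 and 10.4, so that this library stood apart. Fibroblast markers were abundant, with a sum over 11 genes of 44997 to 59704 in untreated and 51651 to 91359 in amisulpride-treated libraries, and none of them passed the study thresholds. These require a log2 fold change of 1 or more in size and an unadjusted p under 0.05. Of the 11 markers, 5 had a log2 fold change below 0, with a median of 0.16 over the list. Prg4 was lower in every treated library, at 915, 859 and 733 against 426, 304 and 653 (-0.92). Such a separation held for 8.66% of all genes tested. Of markers of other cell types, 1 of 6 endothelial genes (Cdh5), 2 of 4 hepatocyte genes (Apoa1 and Ttr) and 3 of 4 adipocyte genes (Adipoq, Cidec and Lep) were at 0 in every library. The remaining ones reached at most 12 (Tek), apart from the hepatocyte gene Serpina1a at 23 to 51, which did not pass the study thresholds.

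Transcripts of the post-squalene enzymes were lower in amisulpride-treated SFs. At the study thresholds 6 of the 9 fell (66.7%), namely Sqle, Cyp51, Tm7sf2, Msmo1, Nsdhl and Sc5d, and 0 rose, whereas 3.01% of all genes tested were called lower and 2.69% higher. The other 3, Lss, Ebp and Dhcr7, did not pass. All 9 fitted log2 fold changes were below 0, as were 49.9% of all genes tested, and the median was -1.18 against 0.0016 over all genes tested. For 5 enzymes (55.6%) every treated library lay below every untreated one, which held for 8.66% of all genes tested, and for none every treated library lay above (7.80% of all genes). With p-values adjusted over all genes tested (limma, Benjamini-Hochberg), Cyp51 alone passed 0.05, where 0.190% of all genes were called lower and 0.0951% higher. With the replicate number as a block, Sqle, Msmo1 and Sc5d passed as well, so that 4 of the 9 were called. That fit called more genes throughout, 2.08% of all genes tested in either direction against 0.285% without the block. Its pairing was taken from these same data, not from a label.

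Summed over the 9 enzymes, the untreated libraries held 2228, 1880 and 1857 normalised counts and the treated libraries 998, 893 and 821. The treated mean of 904 ± 89.0 was 45.5% of the untreated mean of 1988.3 ± 208 (SD, n = 3 in each group), and the groups did not overlap. Scaled to 1 M of each library's total, the sum was 559, 490.5 and 472.5 in untreated and 253, 227 and 182 in treated SFs. With Cyp51 left out, the unscaled sum was 1369, 1211 and 1270 against 743, 648 and 604, so the gap in the sum did not rest on Cyp51 alone. It does not hold for each of the other 8 enzymes, since the groups of Lss, Nsdhl, Ebp and Dhcr7 overlapped. In bulk RNA, fewer cells of a type and less transcript per cell cannot be told apart.

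**Figure D1:**
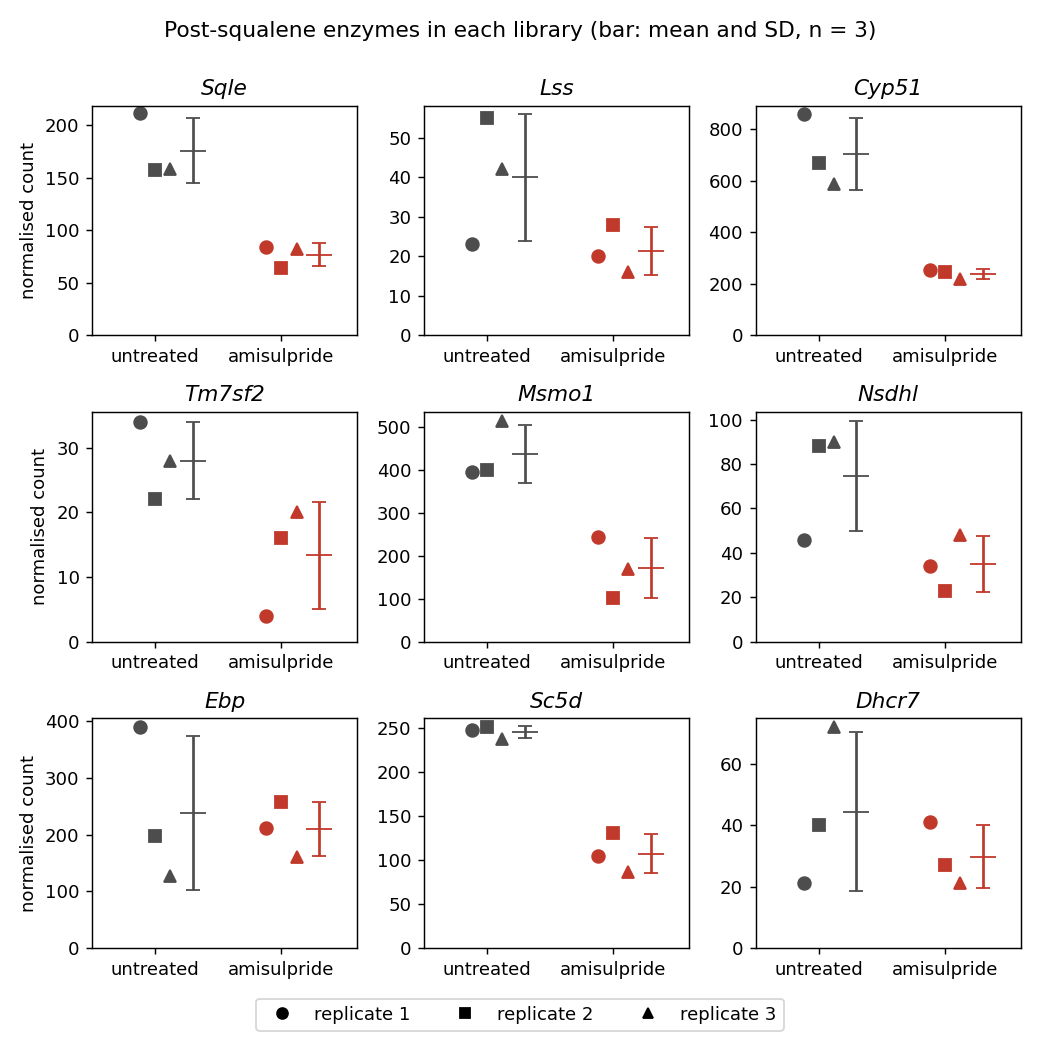
Normalised counts of the 9 enzymes (vertical axes, each from 0) in the 3 untreated and 3 amisulpride-treated libraries, with the symbol giving the replicate number and the bar the mean and SD (n = 3). For Sqle, Cyp51, Tm7sf2, Msmo1 and Sc5d all treated libraries lie below all untreated ones, while the groups overlap for Lss, Nsdhl, Ebp and Dhcr7.

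Sqle (ENSMUSG00000022351, chromosome 15, 59315077 to 59331192, plus strand, mm10), squalene epoxidase, carries out the oxygen-requiring entry step and is regarded as a rate-limiting enzyme of the later pathway. It measured 211, 157 and 158 normalised counts in untreated replicates 1 to 3 and 84, 64 and 82 in treated replicates 1 to 3. Every treated library lay below every untreated one, and the treated mean was 43.7% of the untreated mean. On the scale of log2(normalised count + 1), the difference was -1.18 ± 0.27 (SE), and its adjusted p was 0.0966 in limma and 0.0318 with the replicate block, and the adjusted p ranged from 0.0101 to 0.336 over the 16 alternatives.

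Lss (ENSMUSG00000033105, chromosome 10, 76531588 to 76557138, plus strand), lanosterol synthase, closes the sterol ring system. Its values were 23, 55 and 42 in untreated and 20, 28 and 16 in treated libraries, and untreated replicate 1 lay within the treated range. The log2 fold change of -0.83 had a 95% interval of -1.75 to 0.09, which holds both no difference and a change larger than that of Cyp51. It passed the study thresholds without untreated replicate 1, at -1.17, and without amisulpride replicate 2, at -1.03. An antisense gene that overlaps Lss, 4930483K19Rik, was at 0 in all libraries.

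Cyp51 (ENSMUSG00000001467, chromosome 5, 4081145 to 4104746, minus strand), the cytochrome P450 that removes the methyl group at carbon 14 of lanosterol and the target of azole drugs in fungi, had the lowest p-value of the 9. Untreated libraries held 859, 669 and 587 normalised counts, and treated libraries 255, 245 and 217. The treated libraries lay close together, at 239 ± 19.7 (SD, n = 3), and at 33.9% of the untreated mean of 705 ± 139.5. This log2 fold change of -1.54 ± 0.24 came with an adjusted p of 0.0262 in limma and ranked 23 by p-value among all genes tested. Over the alternatives the log2 fold change stayed between -1.66 and -1.39 and the adjusted p between 6.3e-04 and 0.156. Leaving out a library ended the adjusted call in 5 of 6 cases, with adjusted p values of 0.139, 0.148 and 0.156 without untreated replicates 1, 2 and 3 and of 0.066 and 0.102 without amisulpride replicates 1 and 2, and kept it without amisulpride replicate 3, at 0.0152. The end of Cyp51 shares 166 bases with the end of Akap9 on the opposite strand, and whether counting used strand is not given in the sources used here. Akap9 itself was listed at 35, 24 and 31 in untreated and 27, 21 and 27 in treated libraries.

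Tm7sf2 (ENSMUSG00000024799, chromosome 19, 6062821 to 6068373, minus strand) encodes a reductase that acts on the double bond left by Cyp51, a step that Lbr of the nuclear envelope also performs. It was at 34, 22 and 28 in untreated and at 4, 16 and 20 in treated libraries. The groups did not overlap, but the margin was 22 against 20, and amisulpride replicate 1, at about 4 reads, was far below the other two. The log2 fold change of -1.24 ± 0.56 (p of 0.049, adjusted p of 0.456 in limma) was -0.60 without that library, and the call at the study thresholds held in 9 of the 16 alternatives. It also ended without untreated replicates 1, 2 and 3, at -1.09, -1.39 and -1.23, and it was -1.63 without amisulpride replicate 3. Tm7sf2 overlaps Vps51 on the same strand by 532 bases, where reads of both genes cannot be told apart. The shared bases lie at the 3′ end of Vps51, which a 3′ kit reads, and at the start of Tm7sf2. Vps51 was at 206, 173 and 230 in untreated and 161, 91 and 147 in treated libraries, so it was also lower in every treated library. The part of Vps51 reads in the values of Tm7sf2 was not tested. Lbr held 145, 146 and 113 in untreated and 111, 76 and 149 in treated libraries, which overlapped (-0.31 ± 0.30).

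Msmo1 (ENSMUSG00000031604, chromosome 8, 64718139 to 64733792, minus strand), an oxidase that works with Nsdhl and Hsd17b7 to remove the methyl groups at carbon 4, measured 396, 401 and 515 normalised counts in untreated and 244, 102 and 170 in treated libraries. All treated values were below all untreated ones, with replicate 1 showing the smallest gap. Its log2 fold change was -1.42 ± 0.32 with an adjusted p of 0.0965 in limma and 0.0126 with the replicate block, within a range of 0.0027 to 0.439 over the alternatives.

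Nsdhl (ENSMUSG00000031349, chromosome X, 72918557 to 72958514, plus strand), the dehydrogenase of the same complex, was at 46, 88 and 90 in untreated and 34, 23 and 48 in treated libraries. Amisulpride replicate 3 was just above untreated replicate 1, so the groups overlapped. The log2 fold change of -1.07 ± 0.38 passed the study thresholds (p of 0.0169, adjusted p of 0.309 in limma), but not without untreated replicate 2, untreated replicate 3 or amisulpride replicate 2, at -0.92, -0.91 and -0.81. Hsd17b7, which finishes this demethylation and was not among the 9, held 129, 133 and 199 in untreated and 83, 44 and 70 in treated libraries, with no overlap (-1.23 ± 0.32, adjusted p of 0.151).

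Ebp (ENSMUSG00000031168, chromosome X, 8185329 to 8193512, minus strand), the isomerase that shifts the ring double bond, did not pass the study thresholds. Its values were 390, 197 and 127 in untreated and 211, 257 and 161 in treated libraries, so the groups overlapped across most of their range. The log2 fold change was -0.05 with a 95% interval of -0.88 to 0.77, which includes the value of Lss. Its sign depended on single libraries, at 0.38 without untreated replicate 1 and 0.12 without amisulpride replicate 3, and it was 0.26 with weights per library.

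Sc5d (ENSMUSG00000032018, chromosome 9, 42251595 to 42264256, minus strand), the desaturase that forms 7-dehydrocholesterol, held 248, 251 and 238 normalised counts in untreated and 105, 131 and 86 in treated libraries. The untreated libraries were within 2.77% (coefficient of variation), and every treated library was well below them, at 43.7% of their mean. Its log2 fold change was -1.21 ± 0.25, and the adjusted p was 0.0764 in limma and 0.0236 with the replicate block, within 0.0137 to 0.317 over the alternatives.

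Dhcr7 (ENSMUSG00000058454, chromosome 7, 143823145 to 143848410, plus strand), which reduces 7-dehydrocholesterol to cholesterol and is mutated in Smith-Lemli-Opitz syndrome, varied widely from library to library. It was at 21, 40 and 72 in untreated and 41, 27 and 21 in treated libraries, with the highest and a joint lowest value both in untreated SFs. Its log2 fold change was -0.45 (95% interval -1.46 to 0.56) and depended on single libraries, at -0.89 without untreated replicate 1, -0.70 without amisulpride replicate 1 and -0.02 without untreated replicate 3.

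**Figure D2:**
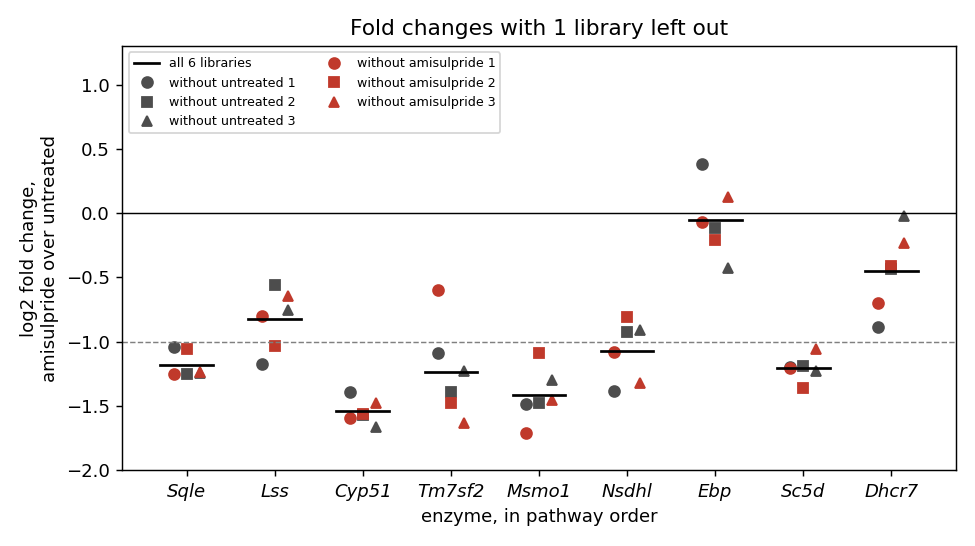
Log2 fold change of each enzyme (vertical axis, amisulpride over untreated) with all 6 libraries (bar) and with 1 library left out (symbols), and a dashed line at -1. Sqle, Cyp51, Msmo1 and Sc5d stay below -1 in every case, Tm7sf2 moves to -0.60 without amisulpride replicate 1, and Ebp changes sign.

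The 4 enzymes Sqle, Cyp51, Msmo1 and Sc5d passed the study thresholds in 16 of 16 alternatives. Libraries of the same replicate number were taken as pairs from the correlations described with the processing, not from a label. The difference was therefore also taken within each number. Within replicates 1, 2 and 3 alike, 8 of the 9 enzymes were lower in the treated library. Dhcr7 was the exception in replicate 1 (0.93) and Ebp in replicates 2 and 3 (0.38 and 0.34). The share of all genes lower within each number was not computed. Between the groups, 49.9% of all genes tested had a log2 fold change below 0. These differences use the same libraries as the group comparison and are not separate support for it. No library was high or low for all enzymes, since untreated replicate 1 was the highest untreated library for 4 enzymes and the lowest for another 4. Amisulpride replicate 3, which stood apart over all genes, was the lowest treated library for 5 enzymes and the highest for Tm7sf2 and Nsdhl. Without it 6 of the 9 still fell, where 3.32% of all genes tested were called lower, and the median log2 fold change was -1.23.

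**Figure D3:**
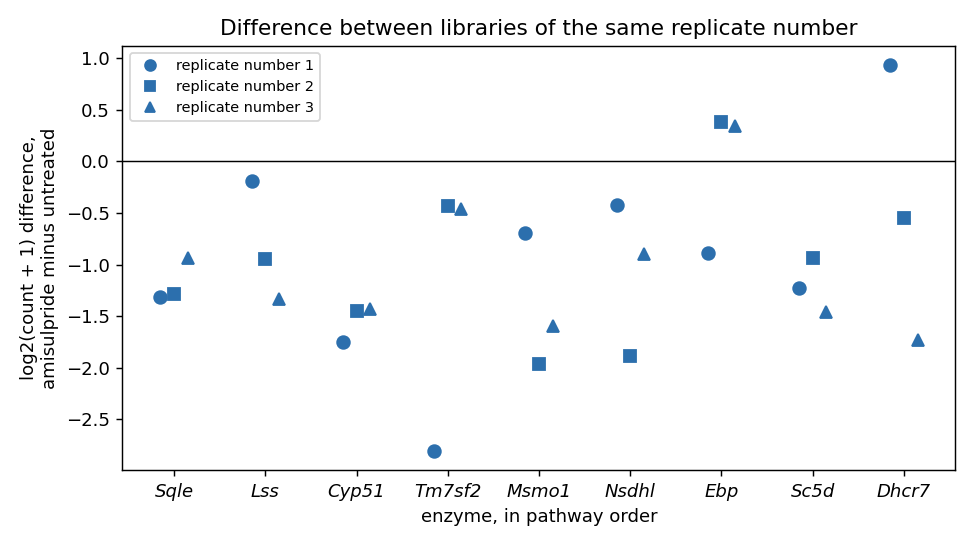
Difference in log2(normalised count + 1) between the treated and the untreated library of the same replicate number (vertical axis) for each enzyme. Cyp51, Sqle and Sc5d lie near or below -1 in all 3 pairs, while Tm7sf2 ranges from -2.81 to -0.44 and Dhcr7 from -1.73 to 0.93.

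Whether the enzymes kept their proportions to each other was examined by the log2 ratio of each of the 36 pairs within each library. The ratio did not overlap between groups for 3 pairs, namely those of Ebp with Cyp51, Sqle and Sc5d. The log2 ratio of Cyp51 to Ebp differed by -1.49 between treated and untreated SFs, that of Sqle to Ebp by -1.13, and that of Ebp to Sc5d by 1.15. The exact two-sided permutation p was 0.1 for each, the smallest that 3 against 3 libraries can give, so none could pass 0.05. This test could therefore not decide whether the proportions of the enzymes changed. All 3 pairs hold Ebp, so they are not separate from the values of Ebp given above. The share of such ratios among pairs of other genes was not computed.

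Sequence just upstream of the genes is shown for 3 enzymes that fell, Cyp51, Sc5d and Nsdhl, and for Ebp, which did not pass. The stretches hold no annotated exon and read 5′ to 3′ on the strand of the gene, from RefSeq on GRCm38.p6, with capitals for the NF-Y box CCAAT, the GC box GGGCGG and the E-box CACGTG on either strand, motifs of factors that are known to act beside SREBP or to share its sites. They lie at chr5:4104747-4104946 (minus, 249 to 50 bases before the start site), chr9:42264301-42264500 (minus, the last 200 bases), chrX:72918412-72918520 (plus, the last 109 bases) and chrX:8193513-8193712 (minus, the last 200 bases).
Cyp51: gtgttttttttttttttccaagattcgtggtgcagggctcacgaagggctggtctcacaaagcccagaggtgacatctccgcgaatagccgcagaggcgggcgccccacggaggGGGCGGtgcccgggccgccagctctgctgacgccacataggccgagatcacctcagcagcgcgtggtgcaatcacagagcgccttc
Sc5d: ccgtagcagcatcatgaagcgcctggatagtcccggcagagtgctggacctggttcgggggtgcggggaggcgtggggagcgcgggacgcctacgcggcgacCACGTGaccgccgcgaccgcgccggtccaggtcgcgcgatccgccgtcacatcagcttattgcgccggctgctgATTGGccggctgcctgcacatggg
Nsdhl: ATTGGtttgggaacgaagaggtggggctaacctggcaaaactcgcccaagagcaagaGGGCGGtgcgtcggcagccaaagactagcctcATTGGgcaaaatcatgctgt
Ebp: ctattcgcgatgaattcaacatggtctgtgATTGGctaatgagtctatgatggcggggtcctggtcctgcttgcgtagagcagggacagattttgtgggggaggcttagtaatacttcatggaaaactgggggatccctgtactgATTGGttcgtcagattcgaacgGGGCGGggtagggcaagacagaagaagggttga

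The table held 10 promoter windows, from 250 bases before to 50 after a start site, for 8 of the 9 enzymes, and none was matched for Sqle. Searching both strands, CCAAT was in 8 of the 10 windows and in at least 1 window of all 8 enzymes, against 37.4% of 32851 windows in all. GGGCGG was in 9 of the 10, again covering all 8 enzymes, against 35.7% of all windows. Cyp51 has its CCAAT 29 bases before the start site, inside an annotated exon and so outside the printed stretch. Ebp, which did not pass the study thresholds, has both motifs, as does Nsdhl, which passed them. CACGTG was found for Sc5d and Dhcr7 (7.15% of all windows). The sterol elements TCACCCCAC, TCACNCCAC and CACCCCAC, of which the shortest lies within the first, were in 0 of the 10 windows and in 0.551%, 1.24% and 2.87% of all windows, which says only that these letters are not in these windows.

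Upstream of squalene, the mevalonate branch was lower as well. Of the 8 genes of this branch that were examined 5 fell at the study thresholds and 0 rose, with a median log2 fold change of -1.31. Among all genes tested 3.01% were called lower and 2.69% higher. For 7 of the 8 every treated library lay below every untreated one, against 8.66% of all genes tested. Fdps, which makes farnesyl diphosphate, went from 150, 126 and 168 normalised counts in untreated to 39, 21 and 20 in treated libraries (-2.48 ± 0.33, adjusted p of 0.013 in limma). Fdft1, squalene synthase and the direct supplier of Sqle, went from 324, 479 and 403 to 107, 158 and 152 (-1.53 ± 0.27, adjusted p of 0.0443). Mvd, which forms isopentenyl diphosphate, went from 272, 178 and 219 to 71, 59 and 63 (-1.76 ± 0.27, adjusted p of 0.0222). Pmvk and Idi1 also fell (-1.09 and -1.56). Acat2 and Mvk did not pass (-0.79 and -0.83), although their groups did not overlap. Hmgcs1, which makes HMG-CoA, did not pass either and had overlapping groups. It was at 1023, 786 and 1239 in untreated and 581, 438 and 2312 in treated libraries. Thus 2 treated libraries were below all untreated ones and amisulpride replicate 3 was above them all.

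**Figure D4:**
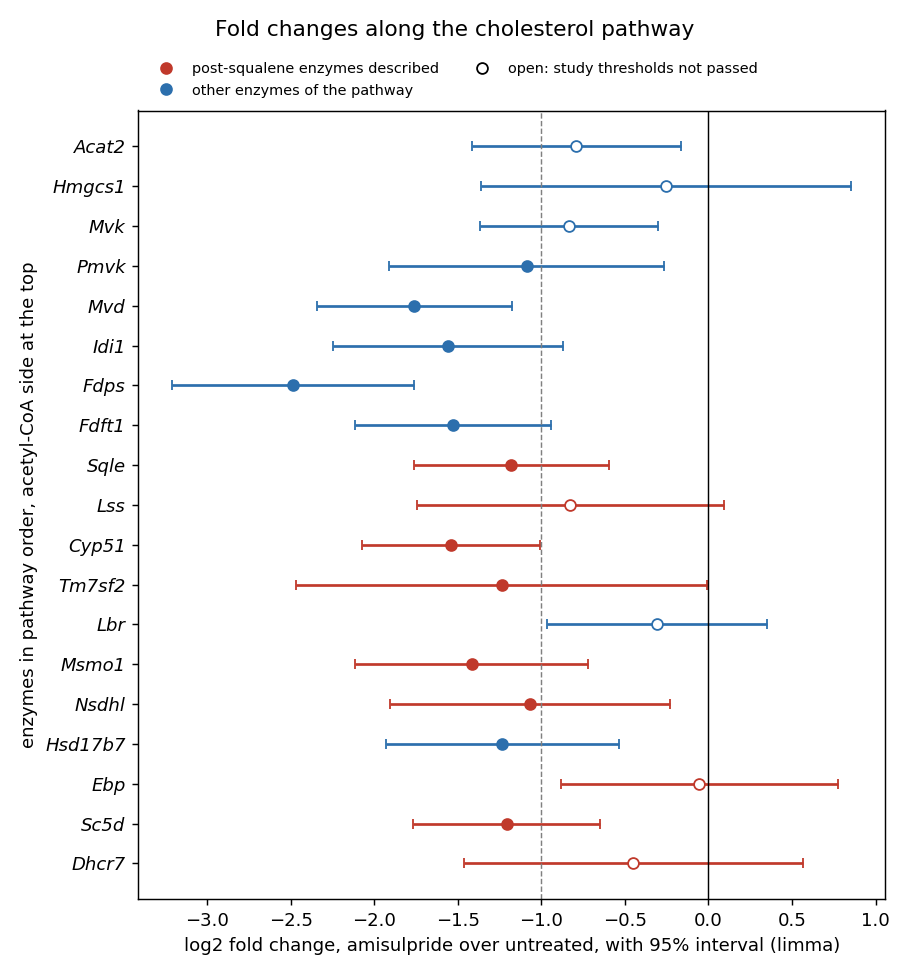
Log2 fold change with 95% interval (horizontal axis) for 19 enzymes between acetyl-CoA and cholesterol in pathway order, with the 9 post-squalene enzymes in red, other enzymes in blue, and open symbols where the study thresholds were not passed. Of these enzymes 12 have filled symbols, all to the left of -1, and the intervals of Lss, Ebp, Dhcr7, Lbr and Hmgcs1 cross 0.

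Partners and regulators of the enzymes gave a less uniform picture. For the counts that follow, 3.01% of all genes tested were called lower and 2.69% higher, and 49.9% had a log2 fold change below 0. Among 7 electron carriers and scaffold genes (Por, Cyb5a, Cyb5b, Cyb5r3, Pgrmc1, Pgrmc2 and Erg28), which pass electrons to Sqle, Cyp51, Msmo1 and Sc5d or hold the complex together, 0 passed the study thresholds and the median log2 fold change was 0.04. Of 7 genes of the SREBP machinery 1 fell, Insig1, itself a known SREBP target, from 62, 44 and 82 to 30, 12 and 36 (-1.33 ± 0.44, adjusted p of 0.265 in limma), and not without untreated replicate 3 or amisulpride replicate 2. Srebf2, which encodes SREBP2, was at 93, 129 and 167 in untreated and 92, 103 and 81 in treated libraries, a log2 fold change of -0.46 that did not pass. Of the 7 genes, 6 had a log2 fold change below 0, with a median of -0.44. For 3 (Insig1, Insig2 and Srebf1) every treated library lay below every untreated one, which held for 8.66% of all genes tested. Srebf1 went from 251, 384 and 363 to 228, 232 and 131 (-0.78 ± 0.30, adjusted p of 0.355 in limma) and did not pass. Among the genes of sterol uptake and transport, 1 of the 3 examined fell, and the median log2 fold change was 0.13. Stard4, a sterol carrier, fell from 83, 85 and 96 to 20, 23 and 43 (-1.66 ± 0.35, adjusted p of 0.0764 in limma). Npc1 had overlapping groups. Npc2 was higher in every treated library, at 3185, 3395 and 3280 against 3950, 3434 and 4393 (0.25), and did not pass. Every treated library lay above every untreated one for 7.80% of all genes tested. Of 6 tested genes that use or remove sterol, 2 fell at the study thresholds, while Abca1 had overlapping groups. They were Ch25h, which makes 25-hydroxycholesterol (-1.65 ± 0.39, adjusted p of 0.113 in limma), and the exporter Abcg1 (-1.95 ± 0.53, adjusted p of 0.173). Abcg1 went from 21, 27 and 27 to 11, 4 and 4, and its values in amisulpride replicates 2 and 3 lie at or below the floor of 3 reads.

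Genes of dividing cells and of myeloid cells were examined beside these. All 9 proliferation genes tested had log2 fold changes below 0 (median -0.81), as did 49.9% of all genes tested. At the study thresholds 2 fell, Mki67 and Plk1, where 3.01% of all genes tested were called lower. Without amisulpride replicate 3, 6 fell, where 3.32% of all genes were called lower. The groups of Mki67 overlapped, at 28, 24 and 11 against 3, 3 and 18, with treated replicates 1 and 2 near the floor. The sum of the list was 777 to 1132 in untreated and 441 to 644 in treated libraries. Myeloid markers were detected although CD45-bearing cells had been depleted, with a sum over 10 genes of 2178 to 3933 in untreated and 2051 to 3949 in treated libraries. Lyz2 alone held 1394 to 3287 of this sum. The median log2 fold change of the list was -0.04, with 5 of 10 genes below 0. At the study thresholds 2 fell, Csf1r, whose groups overlapped, and Cd14, and 0 rose. Over all genes tested 3.01% were called lower and 2.69% higher. C1qb was higher in every treated library (44, 35 and 38 against 53, 50 and 109) without passing, a separation that held for 7.80% of all genes tested. The part of proliferation or of myeloid cells in the lower sterol enzymes was not tested.

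Over the 6 libraries, the pattern of the 9 enzymes (the mean of their standardised log2 values) was compared with that of 11026 other protein-coding genes by Pearson r, as a description. Any gene that separates the groups scores high on this measure, since the libraries form 2 groups of 3. The 5 genes most alike were Kmt5a (0.994), Kif1a (0.992), Pdlim4 (0.990), Rgs16 (0.989) and Rpl22l1 (0.988). Their values lay close together within each group, as in Rgs16, at 74, 79 and 74 in untreated and 48, 52 and 47 in treated libraries. Of these, Kif1a alone passed the study thresholds, at 15, 21 and 23 against 4, 4 and 4, where the treated values lie near the floor. Within the pathway, Fdps ranked 23 (0.973), Mvk 36, Mvd 45 and Fdft1 67, whereas Hmgcs1 (0.105) and Lbr (0.402) were far from it. Set against the mean of the other 8 enzymes, r was 0.957 for Sc5d, 0.951 for Cyp51 and 0.906 for Sqle, and it was 0.294 for Dhcr7 and -0.136 for Ebp.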

How the data were processed

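Libraries of 3 untreated and 3 amisulpride-treated cultures of hTNFtg SFs were prepared with the QuantSeq 3′ kit and sequenced on an Ion Proton. The authors aligned reads to mm10 with TopHat2 and then Bowtie2, counted them with GenomicRanges and normalised the counts in metaseqr before testing with DESeq (versions and the normalisation method not given in the sources used here). Their methods say that genes without counts were removed, but the deposited table lists genes at 0 in every library. The deposited values are a score, made by the authors by scaling each library's read counts with a single factor and rounding. The authors' fold changes and p-values, and 12 further columns of the libraries on other scales, were not used. A 3′ kit counts transcript ends, so a value does not grow with gene length, and the levels of different genes were not compared.

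The value of 1 read in each library was recovered by maximum likelihood from the spacing of low values (0.834 to 1.789), which gave approximate depths. A limma model (version 3.58.1, R 4.3.3) was fitted to log2(value + 1) for genes with at least 10 in at least 3 of 6 libraries, moderated along the variance trend, two-sided, with Benjamini-Hochberg adjustment over all 12614 genes tested. The scale understates changes of low genes. The study's thresholds are those of its methods. The methods call the libraries biological replicates, and the labels number them 1 to 3 in each group. Deviations from the group means correlated at 0.201 to 0.240 between same numbers and at -0.149 to -0.0777 between different numbers over genes. The numbers were taken as pairs from the values between same numbers. Deviations cancel out within a group for each gene, so the negative values follow from the positive ones and add no separate support. No label states a shared animal or batch. Fits were tested on simulated data.

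Members and gene lists were chosen with earlier results of these data known, so no list was tested as a set. Some genes of these lists are not reported here. All 9 enzymes were named. Of the mevalonate and other post-squalene enzymes, the rule was to name those past the adjusted threshold or most like the 9. Values of Pmvk, Idi1 and Hsd17b7 are given as well, although they meet neither criterion. From other lists those past the study thresholds were named, as were the 5 genes most correlated with the 9. Srebf1, Srebf2, Insig2, Abca1, Npc1, Npc2, Prg4, Acat2, Lbr, Hmgcs1, Serpina1a, Tek, Lyz2 and C1qb were added after their values were seen. The 16 alternatives changed the pseudocount, filter, scaling, weights, variance trend or replicate block, or left out each library; voom on approximate reads and the block with weights were added after seeing the data. Gene positions are those of the deposited table, equal to GENCODE M21 for the 9.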

Additional observations from a re-analysis of the deposited data

How the results depend on the processing

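The number of enzymes past the study thresholds, 6, was 4 to 6 over the 16 alternatives, and the median log2 fold change of the 9 lay between -1.23 and -0.99. Of all genes tested, 2.06% to 4.18% were called lower over these alternatives. Of 144 single-enzyme values under an alternative, 128 kept their direction and side of the study thresholds, 11 no longer passed them, 2 newly passed them (both Lss) and 3 changed sign. The sign changes were those of Ebp, at 0.26 with weights per library and at -0.43 to 0.38 with 1 library left out. The enzymes with an adjusted p under 0.05, 1 in the reported fit, numbered 4 with weights per library, 4 with the replicate block, 4 with block and weights together, 0 without a variance trend and 0 to 1 with 1 library left out. Over all genes, 36 had an adjusted p under 0.05. This count was 57 with a pseudocount of 5, 57 with no filter, 66 with quantile normalisation, 195 with weights per library, 263 with the replicate block, 440 with block and weights, and 0 to 120 with 1 library left out. Without the filter 692 genes passed the study thresholds lower and 621 higher, from 22775 genes tested. Apart from Sqle, Msmo1 and Sc5d, the replicate block changed no enzyme's call. The causes of these shifts were not tested. Lss, Tm7sf2 and Dhcr7 had 4 to 86 approximate reads per library, and the 95% intervals of Lss and Dhcr7 held both 0 and a log2 fold change of -1, so neither a fall nor its absence was shown.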
